A study of Zea mays with 6 samples.

Results

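The genes described here are 6 maize genes of jasmonate synthesis and signalling: AOS1 (GRMZM2G067225), AOC1 (GRMZM2G077316), OPR7 (GRMZM2G148281), OPR8 (GRMZM2G082087), MYC2a (GRMZM2G001930) and GRMZM2G049229, listed with MYC2a as a MYC2-type transcription factor. They were chosen by gene identifier out of 39283 genes in the expression table. The rule of choice names no expression value, but the genes were chosen with earlier results of these data known. The RefSeq gene table lists 5 of the 6 identifiers, matched here under the names aos, aoc, opr7, opr8 and MYC2a. AOS1 and AOC1 are the labels used here for aos and aoc. That table does not list GRMZM2G049229, whose designation comes only from the list by which the genes were chosen. The RNA-seq was made to set the binding of auxin response factors beside the response of genes to the auxin indole-3-acetic acid (IAA). The material was the shoot of B73 inbred seedlings, 7 days old and raised in a greenhouse, which was harvested and then bathed for 30 min either in IAA dissolved with 1% DMSO or, as the control, in 1% DMSO without the hormone. The IAA dose is 100 mM in the sample labels and 100 μM in the methods. Each treatment had 3 replicates of 3 plants.

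Jasmonate is a lipid-derived hormone of wounding, herbivore defence and, in maize, of male flower development. Lipoxygenases oxygenate linolenic acid in the plastid, allene oxide synthase (AOS) turns the product into an unstable epoxide, and allene oxide cyclase (AOC) closes it into a ring to give oxo-phytodienoic acid (OPDA). OPDA reductases (OPR) reduce this intermediate in the peroxisome, where beta-oxidation completes the hormone. Its isoleucine conjugate is perceived by the receptor COI1, which leads to the destruction of JAZ repressors of the TIFY family and so frees the factor MYC2. MYC2 then acts on many jasmonate response genes.

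Expression was given as FPKM, the sequenced fragments of a gene corrected for the length of its transcript and the depth of the library, with 1 pooled value per gene and treatment over the 3 replicates. These values hold no spread between replicates against which a difference could be tested, and the number of fragments behind each value is unknown. Values are therefore described beside those of 22506 genes that averaged 1 FPKM or more over both treatments and were above 0 in each. All 6 genes met this minimum. Between these treatments, IAA12, GH3 and saur3, known auxin-responsive genes, had 2.74, 10.2 and 8.07 times the control value. The tissue label was checked against marker genes, and 20 of 23 green shoot genes matched by symbol had at least 70 FPKM in both treatments, with a median of 723 FPKM in DMSO and 758 FPKM in IAA. The 23 include a second identifier matched as pep1, GRMZM5G899080, with 2.26 FPKM in DMSO and 2.83 FPKM in IAA. Whether it is a green shoot gene was not checked. None of 25 kernel genes exceeded 0.441 FPKM, and 22 were listed at 0 in both treatments. Of the root genes matched by symbol, rtcs had 0.0530 FPKM in DMSO and 0.220 FPKM in IAA, and rth3 had 11.1 and 8.70 FPKM. The RNA came from whole aerial portions, in which fewer cells of a type and less RNA per cell cannot be told apart.

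All 6 genes were expressed in the harvested and bathed seedling shoots, and each had nearly the same FPKM in IAA as in DMSO. Shoots of both treatments were harvested before the bath, and the samples include no intact or unbathed shoot. The levels of these genes in intact seedlings are therefore unknown, and an effect of harvest or bath on them was not tested. The 6 ratios of IAA to DMSO lay between 0.905 for AOC1 and 1.096 for OPR7. No gene was more than 1.5-fold higher or lower in IAA, thresholds passed by 4.1% and 5.18% of all genes respectively. All 6 lay within 1.2-fold of the control in either direction, as did 64.4% of all genes. Within 1.1-fold lay 5 of the 6, the exception being AOC1, against 38.7% of all genes. The counts within 1.2-fold and 1.1-fold were added after the values were seen, and no 1.1-fold share was computed by abundance. On the log2 scale the 6 genes had a median ratio of -0.01, with 3 above 0 and 3 below, and all genes had a median of -0.04. The pooled values allow no interval around any of the 6 ratios.

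**Figure D1:**
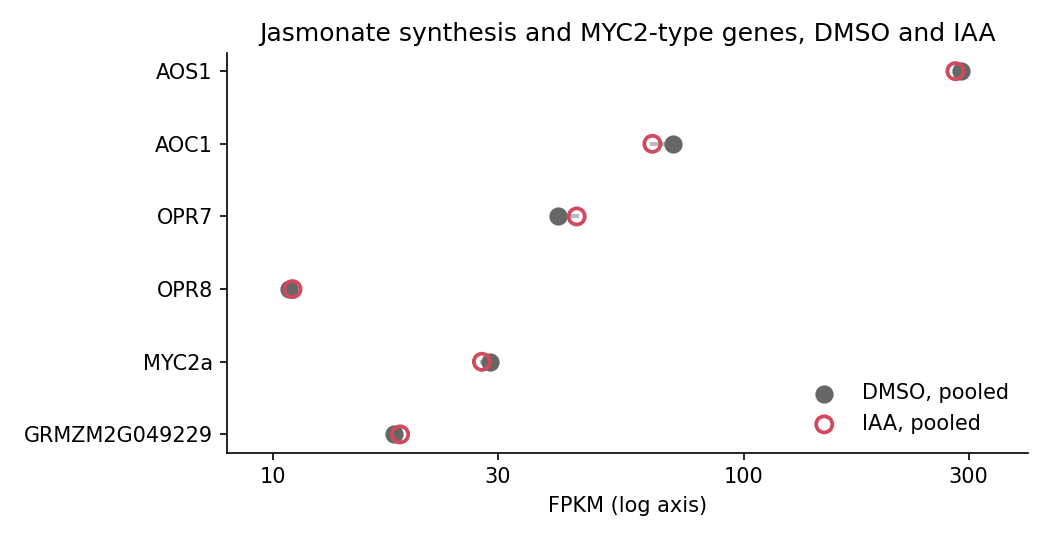
FPKM (log axis) of the 6 genes in the DMSO control (filled grey) and after IAA (open red), 1 pooled value per treatment. The symbols of each gene nearly coincide, from 10.8 and 11.0 FPKM for OPR8 to 289 and 281 FPKM for AOS1.

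AOS1 encodes allene oxide synthase, a cytochrome P450 of the CYP74 family that commits the lipoxygenase product to the jasmonate branch. The gene lies on chromosome 9 from 145603968 to 145606347 in the B73v3 genome. It had 289 FPKM in DMSO and 281 FPKM in IAA, a ratio of 0.972. AOS1 was the most abundant of the 6 genes, above 97.9% of all genes in mean FPKM, and 57.7% of genes averaging 100 FPKM or more lay within 1.2-fold as it did. The log2 ratio of -0.04 stood beside a median of -0.04 over all genes, and became 0.02 when the FPKM of each treatment were scaled to the same sum.

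The name table gives 3 further AOS genes. AOS2 (GRMZM2G002178) had 57.4 FPKM in DMSO and 60.2 FPKM in IAA, a ratio of 1.05. AOS3 (GRMZM2G376661) had 5.59 and 6.73 FPKM, a ratio of 1.203. AOS4 (GRMZM2G072653) stayed below the minimum, with 0.362 FPKM in DMSO and 0.134 FPKM in IAA. AOS1 accounted for 82.0% of the summed FPKM of the 4 genes in DMSO and 80.7% in IAA. The 4 genes summed to 353 FPKM in the control and 348 FPKM after IAA. They were matched by symbol and not divided by product.

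AOC1 encodes allene oxide cyclase, which fixes the stereochemistry of OPDA. The gene lies on chromosome 1 from 76740125 to 76741716. It had 70.6 FPKM in DMSO and 63.9 FPKM in IAA, and this ratio of 0.905 was the farthest below 1 among the 6 genes. Its log2 ratio of -0.14 was still above that of 34.3% of all genes. The second cyclase gene of the name table, AOC2 (GRMZM2G415793), was the more abundant of the pair, with 97.4 FPKM in DMSO and 98.2 FPKM in IAA. AOC1 contributed 42.0% of the summed cyclase FPKM in the control and 39.4% after IAA.

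OPR7 and OPR8 encode the OPDA reductases that supply jasmonate in maize, where plants that lack both are deficient in the hormone. OPR7 lies on chromosome 1 from 207946160 to 207950205, and OPR8 on chromosome 4 from 63562327 to 63567747. OPR7 had 40.3 FPKM in DMSO and 44.1 FPKM in IAA, a ratio of 1.096 and the highest of the 6 genes. Its log2 ratio of 0.13 was above that of 73.4% of all genes. OPR8 had 10.8 and 11.0 FPKM, a ratio of 1.01, and was the least abundant of the 6. OPR7 thus exceeded OPR8 by 3.72 times in the control and 4.01 times after IAA. Because reads of similar copies can be divided between them, the values of the pair were also added, which gave 51.1 FPKM in DMSO and 55.1 FPKM in IAA, a log2 ratio of 0.11.

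Of the other OPR genes of the name table, OPR1 and OPR2 had values farther from the control than this pair. OPR2 (GRMZM2G000236) had 19.9 FPKM in DMSO and 14.5 FPKM in IAA, a ratio of 0.728. OPR1 (GRMZM2G106303), also on chromosome 9, had 13.2 and 10.1 FPKM, a ratio of 0.764. Neither was past 1.5-fold, and both lay outside 1.2-fold. OPR5 (GRMZM2G087192) had 26.9 and 27.8 FPKM, and OPR6 (GRMZM2G068947) had 7.74 and 7.23 FPKM, both within 1.2-fold. OPR3 (GRMZM2G156712) was below the minimum, with 0.533 and 0.639 FPKM. The share of OPR7 and OPR8 in the summed FPKM of the 7 OPR genes was 42.8% in DMSO and 47.8% in IAA. Whether the OPR1 and OPR2 values differ from those of OPR7 and OPR8 beyond replicate error could not be tested.

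MYC2a encodes a basic helix-loop-helix factor of the MYC2 type, also named myc7 in the name table, and lies on chromosome 1 from 98363081 to 98365897. It had 28.9 FPKM in DMSO and 27.8 FPKM in IAA, a ratio of 0.960. On the log2 scale this was -0.06, and 0.01 when both treatments were scaled to the same sum. GRMZM2G049229, on chromosome 9 from 112025169 to 112028072, had 18.1 and 18.6 FPKM, a ratio of 1.03. The more abundant MYC2a had 1.60 times the FPKM of GRMZM2G049229 in the control and 1.49 times after IAA. Added together the MYC2-type genes came to 47.0 FPKM in DMSO and 46.4 FPKM in IAA.

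**Figure D2:**
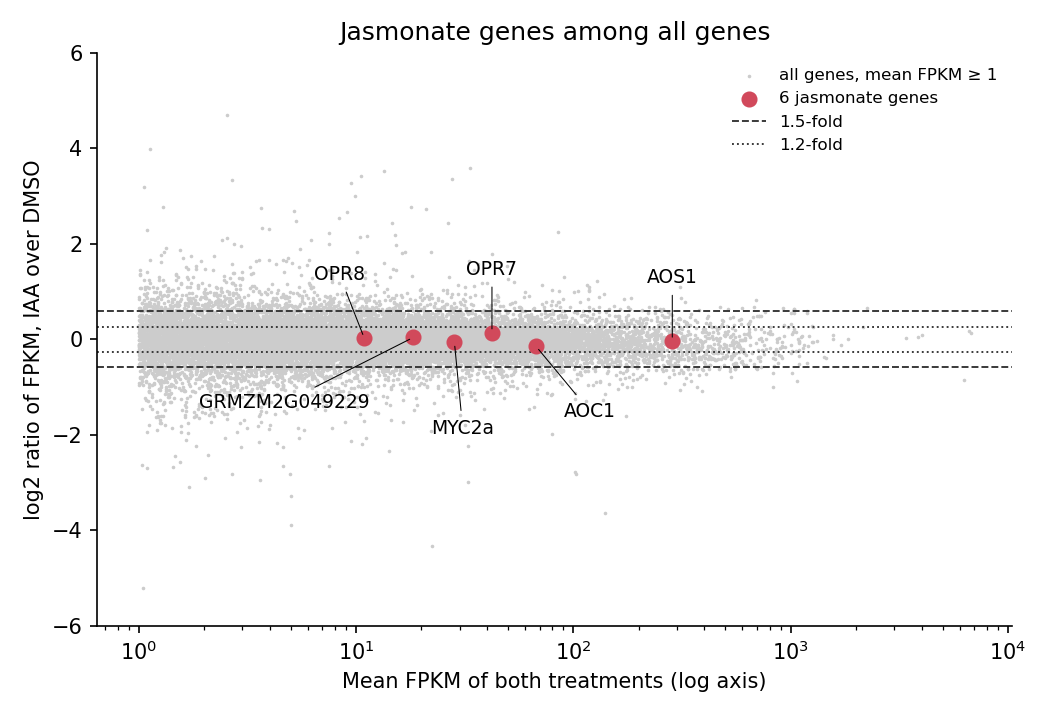
Log2 ratio of FPKM (IAA over DMSO) against the mean FPKM of both treatments (log axis) for 22506 genes (grey) and the 6 jasmonate genes (red), with dashed lines at 1.5-fold and dotted lines at 1.2-fold. The red points lie between -0.14 and 0.13, inside the dotted lines, at mean values from 10.9 to 285 FPKM.

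The order of the levels was the same in both treatments: AOS1, AOC1, OPR7, MYC2a, GRMZM2G049229 and OPR8. FPKM is scaled to transcript length, and on that basis levels are set beside each other between genes here. Reads shared between copies, the annotation and the use of strand could also affect such levels and were not checked. AOS1 stood 4.10 times above AOC1 in the control and 4.40 times above it after IAA. The further steps down the order were smaller, at 1.75 times from AOC1 to OPR7, 1.39 times from OPR7 to MYC2a, 1.60 times from MYC2a to GRMZM2G049229 and 1.67 times from there to OPR8 in DMSO. Whether neighbours in this order differ beyond replicate error is unknown. The 4 synthesis genes summed to 411 FPKM in DMSO and 400.2 FPKM in IAA, a log2 ratio of -0.04. At mean values of at least 10 and below 100 FPKM, the range that holds AOC1, OPR7, OPR8 and both MYC2-type genes, 70.6% of all genes lay within 1.2-fold. None of the 6 loci overlapped another gene of the table.

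The rest of the pathway was taken from gene names. Of 11 AOS, AOC and OPR genes that met the minimum, the 4 chosen genes included, none was past 1.5-fold in either direction and 8 were within 1.2-fold, with a median log2 ratio of 0.01. Of all genes, 4.1% were past 1.5-fold higher, 5.18% were past it lower and 64.4% lay within 1.2-fold. The lipoxygenases hold the enzymes of the step before AOS as well as enzymes of other lipid products, and the list was not divided by product. Of its 10 genes above the minimum, 9 had a higher FPKM in IAA, 2 of them past 1.5-fold, and their median log2 ratio was 0.36. Among all genes, 4.1% were past 1.5-fold higher and the median log2 ratio was -0.04, while the share above 0 was not counted. LOX8 (GRMZM2G104843), the tasselseed gene ts1 and a lipoxygenase known for jasmonate synthesis in the tassel, had 26.7 FPKM in DMSO and 31.3 FPKM in IAA, a ratio of 1.17 and within 1.2-fold like the 6 genes. LOX4 (GRMZM2G109056) had 19.5 FPKM in DMSO and 32.6 FPKM in IAA, LOX6 (GRMZM2G040095) had 142 and 221 FPKM, and the most abundant, LOX10 (GRMZM2G015419), a leaf lipoxygenase of green leaf volatile synthesis, had 888 and 1114 FPKM. Summed over 11 genes, the lipoxygenase FPKM was 1823 in DMSO and 2387 in IAA, whereas the AOS, AOC and OPR sums were each slightly lower in IAA, with log2 ratios between -0.05 and -0.02. These 3 sums turn above 0 when both treatments are scaled to the same sum, which adds 0.06 to every log2 ratio. The OPR list was not divided by product either, and its parts went in different directions as deposited. OPR7 and OPR8 together had 51.1 FPKM in DMSO and 55.1 FPKM in IAA, a log2 ratio of 0.11. The other 5 OPR genes summed to 68.3 FPKM in DMSO and 60.2 FPKM in IAA. The difference between the lipoxygenase list and the later steps was not tested, since it has no replicate values.

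**Figure D3:**
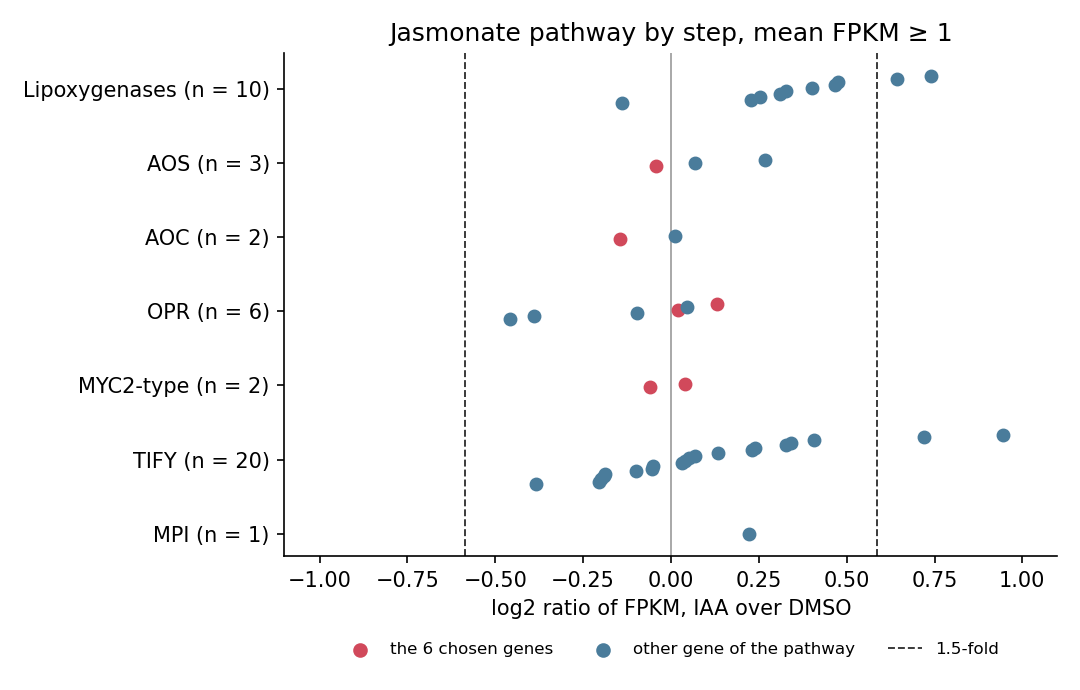
Log2 ratio of FPKM (IAA over DMSO) of each jasmonate pathway gene averaging 1 FPKM or more, by step, with the 6 chosen genes in red, other genes in blue and dashed lines at 1.5-fold. Of the 10 lipoxygenases 9 lie above 0, the 6 red points lie between -0.14 and 0.13, and 2 of 20 TIFY genes lie past 1.5-fold.

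Downstream of the receptor, 20 TIFY genes met the minimum, a family that includes the JAZ repressors of MYC2. Their median log2 ratio was 0.05, with 12 above 0, or 14 after scaling to the same sum. The median over all genes was -0.04 as deposited, and the share of all genes above 0 was not counted under either scaling. The gene named TIFY4 (GRMZM2G445634) had 94.5 FPKM in DMSO and 182 FPKM in IAA, a ratio of 1.92. TIFY15 (GRMZM2G005954) had 12.2 and 20.1 FPKM, a ratio of 1.65. These were the 2 TIFY genes past 1.5-fold, none was past it downwards, and 14 of the 20 lay within 1.2-fold. Of all genes, 4.1% were past 1.5-fold higher and 64.4% lay within 1.2-fold. The most abundant, TIFY27 (GRMZM2G089736), had 295 and 374 FPKM. MPI (GRMZM2G028393), a wound-inducible proteinase inhibitor gene, had 959 FPKM in DMSO and 1119 FPKM in IAA, a ratio of 1.17. One gene of the list, GRMZM2G145407, is named JAZ9 in the name table, with 11.7 FPKM in DMSO and 10.9 FPKM in IAA. For the other TIFY genes the name table does not say whether they encode JAZ proteins. No identifier was matched by symbol for beta-oxidation, the COI1 receptor, hormone conjugation or turnover, so these steps were not analysed here.

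The sign of the AOS1 and MYC2a differences depended on how the FPKM were scaled. With the values as deposited, AOS1, AOC1 and MYC2a were below 0 on the log2 scale, and OPR7, OPR8 and GRMZM2G049229 above it. With both treatments scaled to the same sum, 5 of the 6 genes were above 0 and AOC1 alone was below, at -0.08. Under every scaling and pseudocount tried the 6 genes stayed within 1.2-fold.

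**Figure D4:**
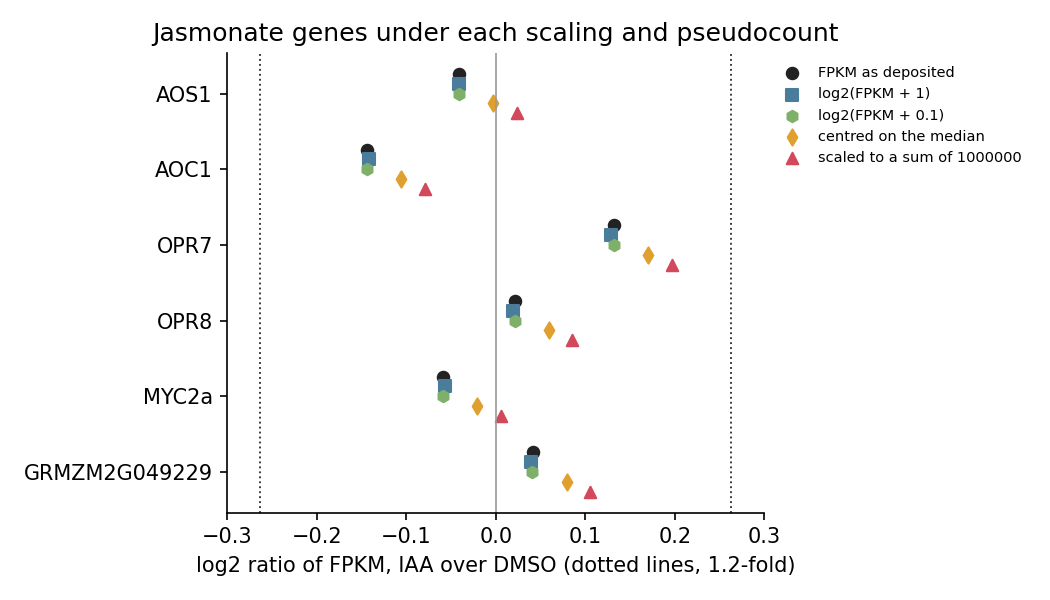
Log2 ratio of FPKM (IAA over DMSO) of the 6 genes with the values as deposited, with 1 or 0.1 FPKM added, centred on the median of all genes, and scaled to a sum of 1000000 FPKM, with dotted lines at 1.2-fold. All points lie between -0.14 and 0.20, and those of AOS1 and MYC2a cross 0 when scaled to the same sum.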

How the data were processed

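RNA-seq of 6 samples (3 DMSO, 3 IAA) was used. Quality trimming (trimmomatic), mapping to the B73v3 genome (Tophat) and cuffdiff were run by the authors. The submitters' processing notes name TopHat2 2.1.1 and Cuffdiff 2.2.1, and the annotation and the use of strand in counting are not given in the sources used here. The authors deposited FPKM, 1 pooled value per gene and treatment, so depth per sample is unknown, and the FPKM values allowed no test, interval or replicate comparison here. The limma fit foreseen for replicate values was not run. The table also holds the authors' own fold changes, test statistics, p-values and q-values from the replicates, which were not used by choice.

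Ratios are IAA over DMSO of the deposited FPKM with no pseudocount, for genes averaging 1 FPKM or more with both values above 0, and a threshold of 1.5-fold stands in for a call. To count from 1, 1 was added to the start of each locus, because the length in the name table equalled end minus start for 632 of 18475 identifiers and this plus 1 for 67. Names came from the RefSeq table of Zm-B73-REFERENCE-NAM-5.0, which holds 18995 identifiers, by symbol or synonym and used for names only. The genes and lists were chosen with earlier results of these data known. Named besides the 6 genes were every AOS, AOC, OPR and MYC gene found that averaged 1 FPKM or more, and from other lists the genes past 1.5-fold and the most abundant. AOS4 and OPR3, below the minimum, LOX8, JAZ9 and the genes of the closing observations were named after their values were seen. Protein and promoter comparisons were not run. Alternatives were pseudocounts of 1 and 0.1 FPKM, centring on the median, scaling to a sum of 1000000, folds of 1.2 and 2, and a minimum mean of 5 FPKM or none. The counts within 1.2-fold and 1.1-fold were added after seeing the data. The ratio and counting steps were tested on simulated data. Scripts ran under Python 3.11.15 with pandas 2.3.3, numpy 2.4.6 and, for the plots, matplotlib 3.10.9.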

Additional observations from a re-analysis of the deposited data

How the results depend on the processing

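No paired analysis was possible because each treatment has only 1 pooled value, and for the same reason no replicate could be left out. Fragment numbers are unknown, so what depth limits was not measured. No chosen gene was past 1.5-fold, 2-fold or 1.2-fold in either direction under any setting. With a pseudocount of 1 or 0.1 FPKM, no log2 ratio of the 6 genes, nor their median, differed at the second decimal. Centring on the median of all genes gave -0.00289 for AOS1, -0.106 for AOC1, 0.170 for OPR7, 0.0595 for OPR8, -0.0207 for MYC2a and 0.0793 for GRMZM2G049229, with a median of 0.0283. Scaling to a sum of 1000000 gave 0.0232, -0.0795, 0.196, 0.0856, 0.0054 and 0.105 in the same order, with a median of 0.0544. Both add the same amount to every gene by construction. With the OPR7 and OPR8 pair and the MYC2-type pair each summed, the median was -0.0304.

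Among all genes, 922 were past 1.5-fold higher and 1165 lower. These counts became 538 and 776 with 1 FPKM added, 211 and 314 at 2-fold, 3422 and 4580 at 1.2-fold, 450 and 594 with a minimum mean of 5 FPKM, and 2662 and 2852 with no minimum. Scaling to the same sum turned the split to 1169 higher and 935 lower, and centring to 1056 and 1022. The median of all genes was -0.0338 with no minimum. Within 1.1-fold lay 8715 genes, against 14504 within 1.2-fold.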

Other observations

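Several genes of the pathway lists lie beside a relative. Some neighbours had like values, such as TIFY9 (GRMZM2G145412) and TIFY10 (GRMZM2G145458) on chromosome 1, with ratios of 0.877 and 0.868. Others had unlike values. On chromosome 1, TIFY1 (GRMZM2G343157), TIFY2 (GRMZM5G838098) and TIFY4 (GRMZM2G445634) lie between 16776170 and 16792462. TIFY1 had 17.7 FPKM in DMSO and 13.5 FPKM in IAA, a ratio of 0.766. TIFY2 had 22.3 and 26.3 FPKM, a ratio of 1.18, and TIFY4, the most abundant of these, had a ratio of 1.92. LOX3 (GRMZM2G109130) had 25.02 and 31.0 FPKM, a ratio of 1.24, beside 1.67 for LOX4 (GRMZM2G109056), which begins at 264275083 on the same chromosome, just after LOX3 ends at 264271190. Reads shared between such neighbours were not tested. These genes were picked after their values had been seen.

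Green shoot genes are a second group in which values were not uniform. Of 22 that met the minimum, 16 had a higher FPKM in IAA, with a median log2 ratio of 0.16 as deposited. Among the 16 is GRMZM5G899080, matched by the symbol pep1 only and not checked as a green shoot gene. Past 1.5-fold higher were 3, or 4 after scaling both treatments to the same sum. Of all genes, 4.1% were past 1.5-fold higher as deposited, and their median log2 ratio was -0.04. After scaling to the same sum, 1169 of the 22506 genes were past 1.5-fold higher, against 922 as deposited. The 1.5-fold share was not computed for abundant genes alone, and the share of all genes above 0 was not counted. The 3 green shoot genes past 1.5-fold as deposited were pep1 (GRMZM2G083841), with 805 FPKM in DMSO and 1259 FPKM in IAA, Ppdk1 (GRMZM2G306345), with 1741 and 2726 FPKM, and lhcb6 (GRMZM2G092427), with 719.5 and 1127 FPKM. These encode phosphoenolpyruvate carboxylase and pyruvate phosphate dikinase, enzymes of the carbon-concentrating cycle of maize leaves, and an antenna protein of photosystem II.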
